A study of Mus musculus with 11 samples.

Results

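Genes that mark the late steps of neutrophil production were followed in fetal livers that lacked caspase-8 and TNFR1 and in livers of 3 other genotypes. They were chosen by symbol, as the rows for Cebpe, Ltf, Camp, Ngp, Lcn2, Chil3, S100a8, S100a9, Retnlg and Cxcr2, and make up 10 of the 52636 genes in each table of counts. All 10 passed the filter on low counts that left 17243 genes. No level or fold change entered this rule, but the genes were proposed with earlier results of the same livers in view.

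Each sample was the RNA of a whole E15.5 liver, a stage at which this organ makes blood, from 3 WT, 2 Tnfr1-/- (Tnfr1 KO in the labels), 3 Casp8-/- Mlkl-/- (Casp8 Mlkl dKO) and 3 Casp8-/- Tnfr1-/- (Casp8 Tnfr1 dKO) embryos that received no treatment. The alleles are whole-body knockouts on a C57BL/6N background, so neutrophil precursors and hepatocytes carry the same deletion, and the labels give no litter or sex. Caspase-8 restrains necroptosis, for which MLKL is needed, and TNFR1, encoded by Tnfrsf1a, is a receptor for TNF. Counts on genes summed to 23129212 in the shallowest liver and 35819339 in the deepest. Because the labels do not say whether replicates shared a litter, p values measure the spread between these livers only.

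Neutrophils fill their granules in a fixed order. Promyelocytes make the primary granules, with myeloperoxidase and elastase. Myelocytes and metamyelocytes, under the transcription factor C/EBPε, then make the specific granules, with lactoferrin and the cathelicidin precursor. Maturing cells add gelatinase granules, store large amounts of the calcium-binding proteins S100A8 and S100A9, and place the chemokine receptor CXCR2 on their surface, which draws them into the blood. RNA of a late gene in a whole liver therefore depends on how many such cells it holds and on how much RNA each makes, and these counts cannot tell fewer cells from less RNA per cell.

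Both livers that stood apart from the rest bear on every value that follows. Casp8-/- Tnfr1-/- replicate 3 correlated with the other livers at r = 0.840 to 0.891 over log2 CPM of all genes tested, against at least 0.949 among the other 10. It held 1395 CPM summed over 8 striated muscle genes against 13.7 to 32.2 CPM. Its Xist stood at 3409 CPM against at most 0.57 CPM elsewhere. Its Ddx3y, a Y chromosome gene, stood at 0.057 CPM against 66.6 to 114 CPM elsewhere, and the Y chromosome genes Eif2s3y, Kdm5d and Uty stood at 0. By these genes replicate 3 was female and the other 10 livers male, and the part of sex in its values was not tested. Casp8-/- Mlkl-/- replicate 1 held 193070 CPM summed over 6 hepatocyte markers, against 48588 to 89350 CPM in the other livers. All hepatocyte and erythroid markers checked were counted in every liver. Casp8 RNA was lower in Casp8-/- Tnfr1-/- than in WT (log2 fold change -0.99 ± 0.24 SE, adjusted p = 0.0402), at 13.1, 11.5 and 21.9 CPM against 27.7 to 33.6 CPM. Replicate 3 was thus the nearest to WT, and without it the log2 fold change was -1.31 ± 0.15 SE (adjusted p = 0.000887). Casp8-/- Mlkl-/- livers held Casp8 at 7.82 to 10.2 CPM. Mlkl stood at 0.73 to 1.22 CPM in Casp8-/- Mlkl-/- against 4.23 to 4.46 CPM in WT. Tnfrsf1a counts in Tnfr1-/- livers (49.8 and 50.5 CPM) lay within the WT range of 47.1 to 53.4 CPM and so did not check that label. Tnfrsf1a stood at 425 CPM in Casp8-/- Tnfr1-/- replicate 3, against 76.9 and 76.0 CPM in replicates 1 and 2.

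The stretches before the starts of these genes are shown because C/EBP factors act at the promoters of specific granule genes and Cebpe is itself among the 10. RefSeq starts on GRCm38.p6 were matched for 9 genes, all but Cebpe. In the 250 bases before the start, the C/EBP-type letters TTGCNNAA were found on either strand in 5 of the 9, namely Ltf, Ngp, Lcn2, S100a9 and Retnlg, against 9.56% of 32851 promoters of the same length. The letters GAGGAAGT, of the PU.1 type, were found only before S100a8 among the 9 (2.44% of all promoters), and TTCNNNGAA, of the STAT type, only before Chil3 (7.02% of all promoters). A match describes letters and does not show a bound site. The Lcn2 window (chr2:32387740-32387989, minus strand) lies wholly within the annotated gene, so its match is not before the first annotated base and is not printed. For 4 of the 5 genes with a C/EBP-type match, the window is printed from 5′ to 3′ on the gene's strand, cut where needed so that it ends before the first annotated base of the gene, with the match in capitals (a match on the opposite strand reads as its reverse complement).
Ltf (chr9:111019042-111019270, plus strand): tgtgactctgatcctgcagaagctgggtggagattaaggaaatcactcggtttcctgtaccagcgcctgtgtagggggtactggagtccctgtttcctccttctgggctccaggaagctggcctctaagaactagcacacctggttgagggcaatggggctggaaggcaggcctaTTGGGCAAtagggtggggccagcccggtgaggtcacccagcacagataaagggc
Ngp (chr9:110419558-110419746, plus strand): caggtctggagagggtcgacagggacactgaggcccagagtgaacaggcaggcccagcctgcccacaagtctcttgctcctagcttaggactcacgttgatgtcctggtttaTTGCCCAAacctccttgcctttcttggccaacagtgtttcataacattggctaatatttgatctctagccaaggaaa
S100a9 (chr3:90695722-90695971, minus strand): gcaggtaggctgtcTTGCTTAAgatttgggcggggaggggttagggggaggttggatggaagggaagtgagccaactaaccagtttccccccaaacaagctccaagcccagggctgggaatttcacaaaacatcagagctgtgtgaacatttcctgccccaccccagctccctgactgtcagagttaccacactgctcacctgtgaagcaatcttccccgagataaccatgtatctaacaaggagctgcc
Retnlg (chr16:48872358-48872607, plus strand): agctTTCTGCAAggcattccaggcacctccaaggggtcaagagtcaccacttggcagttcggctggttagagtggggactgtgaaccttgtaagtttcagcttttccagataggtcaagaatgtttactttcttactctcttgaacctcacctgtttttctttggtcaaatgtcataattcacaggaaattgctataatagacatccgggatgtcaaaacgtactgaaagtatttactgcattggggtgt
Read on the opposite strand, the Ltf match has the same letters as the printed Ngp match, and both genes lie on chromosome 9. Ngp had a further C/EBP-type match on the opposite strand, TTGGGCAA at bases -11 to -4 from the RefSeq start, which is not printed because it lies past the first annotated base of the gene. The matches of S100a9 and Retnlg lie near the far end of their windows.

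Against WT, 7 of the 10 genes were higher in Casp8-/- Tnfr1-/- livers, namely Cebpe, Ltf, Ngp, Lcn2, S100a8, S100a9 and Cxcr2, and none was lower. Of all genes tested, 5.10% were called higher in this comparison. The median log2 fold change of the 10 genes was 3.29, against -0.0015 over all genes tested. Camp, Chil3 and Retnlg had positive fold changes that did not pass the adjusted p threshold of 0.05. The count rests on the livers in the fit: it was 1, 1 and 0 without WT replicate 1, 2 or 3, and 10 without Casp8-/- Mlkl-/- replicate 1, while the 10 fold changes stayed positive. No share of all genes is set beside these counts, so they show only how far the calls move. All levels are CPM, counts scaled to library size by TMM, given in the order of the replicate numbers.

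**Figure D1:**
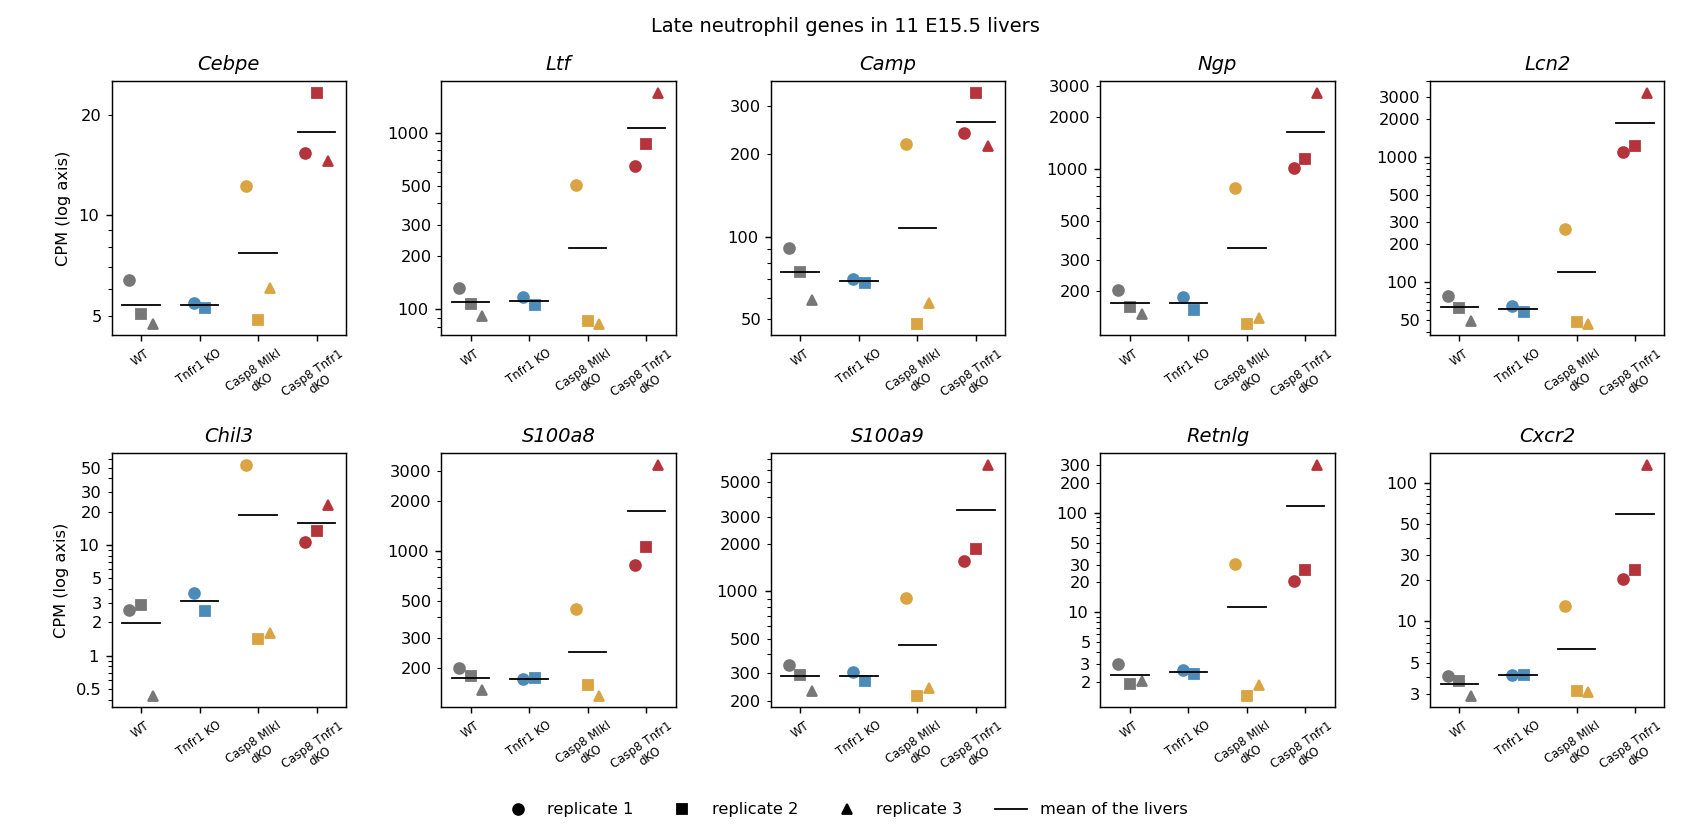
CPM of each gene in each of the 11 livers (log axes), by genotype; marker shapes give the replicate number and bars the mean of the livers. Casp8-/- Tnfr1-/- livers hold the highest 3 values for 7 of the genes. Casp8-/- Mlkl-/- replicate 1 is the highest of the other 8 livers in every panel, and for Chil3 (53.2 CPM) it is the highest of all 11.

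Cebpe (ENSMUSG00000052435, chr14:54710360-54712174 on GRCm38) encodes C/EBPε, without which neutrophils fail to form specific granules. It stood at 6.38, 5.07 and 4.73 CPM in WT, 5.47 and 5.28 CPM in Tnfr1-/-, 12.2, 4.85 and 6.04 CPM in Casp8-/- Mlkl-/- and 15.4, 23.3 and 14.5 CPM in Casp8-/- Tnfr1-/- livers. All Casp8-/- Tnfr1-/- livers lay above the other 8, the nearest of which was Casp8-/- Mlkl-/- replicate 1. The log2 fold change against WT was 1.72 ± 0.35 (SE, adjusted p = 0.0196), the smallest of the 10 genes. Unlike most of the others, Cebpe was no higher in Casp8-/- Tnfr1-/- replicate 3 than in replicates 1 and 2, at 0.751 times their mean.

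Ltf and Ngp, both genes of the specific granules, were higher than in WT by about the same factor. Ltf (ENSMUSG00000032496, chr9:111019271-111042767), which encodes the iron-binding protein lactoferrin, stood at 132, 107.5 and 92.0 CPM in WT, 118 and 105.5 CPM in Tnfr1-/-, 503, 85.8 and 83.3 CPM in Casp8-/- Mlkl-/- and 645, 863 and 1684 CPM in Casp8-/- Tnfr1-/- livers. The lowest Casp8-/- Tnfr1-/- liver was above Casp8-/- Mlkl-/- replicate 1, and the other 7 livers lay close together. Its log2 fold change against WT was 3.27 ± 0.70 (SE, adjusted p = 0.026). Ngp (ENSMUSG00000032484, chr9:110419747-110423012), a cathelicidin relative stored in neutrophil granules, stood at 200.45, 162 and 147 CPM in WT, 184 and 154 CPM in Tnfr1-/-, 782, 129 and 139 CPM in Casp8-/- Mlkl-/- and 1009, 1136.5 and 2751 CPM in Casp8-/- Tnfr1-/-. As for Ltf, the Casp8-/- Tnfr1-/- livers held the highest 3 values and Casp8-/- Mlkl-/- replicate 1 the next. Its log2 fold change, 3.27 ± 0.71 (SE, adjusted p = 0.0277), was the same as that of Ltf to 2 decimals.

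Lcn2 (ENSMUSG00000026822, chr2:32384633-32388252) encodes lipocalin-2, which binds bacterial siderophores and is made by neutrophil precursors and, in inflammation, by hepatocytes. It stood at 78.2, 62.6 and 49.0 CPM in WT, 64.3 and 57.9 CPM in Tnfr1-/-, 267, 48.0 and 46.9 CPM in Casp8-/- Mlkl-/- and 1100.3, 1217 and 3249.5 CPM in Casp8-/- Tnfr1-/- livers. The gap between the lowest Casp8-/- Tnfr1-/- liver and the highest of the others was the widest of the 10 genes, 1100.3 against 267 CPM. With a log2 fold change of 4.87 ± 0.78 (SE, adjusted p = 0.00687) against WT, it was the only 1 of the 10 genes called in all 3 comparisons of Casp8-/- Tnfr1-/- livers. Of the 6 hepatic acute phase genes tested, 4 (Saa3, Orm1, Lrg1 and Serpina3n) were higher than in WT, whereas edgeR called 0 against Tnfr1-/- and 0 against Casp8-/- Mlkl-/- (4 at an unadjusted p under 0.05 in each; DESeq2 called 3 and 1, limma-voom 1 and 1). Fgg and Itih4, which were tested but not called, made up most of the summed level of the 9 genes listed. That sum was 2919 to 10053 CPM in Casp8-/- Tnfr1-/-, 1014 to 1606 CPM in WT, 1503 to 1572 CPM in Tnfr1-/- and 988 to 7442 CPM in Casp8-/- Mlkl-/- livers. Saa1 was at 0 in 10 of the 11 livers, and Saa2 and Orm2 reached at most 0.0688 and 0.228 CPM. The part of hepatocytes in the Lcn2 result was not tested.

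Camp (ENSMUSG00000038357, chr9:109847379-109849617), which encodes the precursor of the antimicrobial peptide CRAMP, stood at 91.0, 74.7 and 58.7 CPM in WT, 70.0 and 67.8 CPM in Tnfr1-/-, 218, 48.3 and 57.6 CPM in Casp8-/- Mlkl-/- and 239, 336 and 215.5 CPM in Casp8-/- Tnfr1-/- livers. The groups overlapped by a small margin, since Casp8-/- Mlkl-/- replicate 1 exceeded Casp8-/- Tnfr1-/- replicate 3. The log2 fold change against WT was 1.82 ± 0.51 (SE, adjusted p = 0.0676), about as large as that of Cebpe but with a wider error. Chil3 (ENSMUSG00000040809, chr3:106147554-106167564), which encodes the chitinase-like protein Ym1 of myelocytes and some macrophages, was low, with 2.57, 2.85 and 0.434 CPM in WT, 3.69 and 2.545 CPM in Tnfr1-/-, 53.2, 1.42 and 1.61 CPM in Casp8-/- Mlkl-/- and 10.6, 13.5 and 23.2 CPM in Casp8-/- Tnfr1-/-. The highest value belonged to Casp8-/- Mlkl-/- replicate 1, above every Casp8-/- Tnfr1-/- liver. Its log2 fold change of 3.01 ± 1.28 (SE) against WT had an adjusted p of 0.185, and 26.9% of its 50-base stretches occur in Chil4 or Gm6522, so its counts are less certain than those of the other genes.

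S100a8 and S100a9 encode the subunits of calprotectin, the main cytosolic protein of neutrophils, and lie near each other (ENSMUSG00000056054, chr3:90668978-90670035, and ENSMUSG00000056071, chr3:90692632-90695721). S100a8 stood at 197, 179 and 146 CPM in WT, 169.9 and 174 CPM in Tnfr1-/-, 448, 156.5 and 136 CPM in Casp8-/- Mlkl-/- and 828, 1056 and 3297 CPM in Casp8-/- Tnfr1-/- livers. S100a9 stood at 337, 292 and 230.4 CPM in WT, 306 and 266 CPM in Tnfr1-/-, 908, 216 and 241 CPM in Casp8-/- Mlkl-/- and 1575.5, 1879.7 and 6468.5 CPM in Casp8-/- Tnfr1-/- livers. For both genes every Casp8-/- Tnfr1-/- liver was above the other 8. The log2 fold changes against WT were 3.31 ± 0.61 (SE, adjusted p = 0.013) for S100a8 and 3.53 ± 0.70 (SE, adjusted p = 0.0182) for S100a9.

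Retnlg and Cxcr2 are used most fully by mature neutrophils. Retnlg (ENSMUSG00000022651, chr16:48872621-48874496), which encodes resistin-like gamma, stood at 3.03, 1.89 and 2.05 CPM in WT, 2.63 and 2.39 CPM in Tnfr1-/-, 30.4, 1.45 and 1.87 CPM in Casp8-/- Mlkl-/- and 20.5, 26.7 and 303 CPM in Casp8-/- Tnfr1-/- livers. Replicate 3 was far above its own group, and Casp8-/- Mlkl-/- replicate 1 was above Casp8-/- Tnfr1-/- replicates 1 and 2. The log2 fold change against WT was the largest of the 10 genes and had the largest error, 5.64 ± 1.47 (SE, adjusted p = 0.0541). Cxcr2 (ENSMUSG00000026180, chr1:74153989-74161246), the receptor for CXCL1 and related chemokines, stood at 4.07, 3.69 and 2.92 CPM in WT, 4.10 and 4.14 CPM in Tnfr1-/-, 12.8, 3.17 and 3.10 CPM in Casp8-/- Mlkl-/- and 20.2, 23.4 and 135 CPM in Casp8-/- Tnfr1-/- livers. No Casp8-/- Tnfr1-/- liver overlapped with the others, and the log2 fold change against WT was 4.06 ± 0.84 (SE, adjusted p = 0.023). Of its 50-base stretches, 6.68% occur in other genes.

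Against Tnfr1-/- livers, which share the loss of TNFR1 and so differ by caspase-8, Lcn2 (log2 fold change 4.93 ± 0.93 SE, adjusted p = 0.0268) and S100a8 (3.33 ± 0.72 SE, adjusted p = 0.0478) were higher, 2 of 10, where 2.05% of all genes tested were called higher. The median of the 10 genes was 3.30 against -0.0141 over all genes, so their fold changes were about as large as against WT while the errors were larger with 2 livers in the comparison group. Against Casp8-/- Mlkl-/- livers, Lcn2 was higher (3.94 ± 0.74 SE, adjusted p = 0.0328), 1 of 10, where 1.54% of all genes tested were called higher. S100a8 had an adjusted p of 0.0515 there, and Chil3 had a negative fold change (-0.25 ± 1.16 SE, adjusted p = 0.919). The median of the 10 genes against Casp8-/- Mlkl-/- was 2.53. These comparisons share the 3 Casp8-/- Tnfr1-/- livers, and their counts are not independent. The counts that follow, with single livers left out, show only how far the calls move and are not set against a share of all genes. Against Tnfr1-/-, the count was 0 or 1 without any of the WT or Tnfr1-/- livers or Casp8-/- Mlkl-/- replicate 3, 8 without Casp8-/- Mlkl-/- replicate 1 and 4 without Casp8-/- Tnfr1-/- replicate 1 or 3. Against Casp8-/- Mlkl-/-, it was 0 without any of the WT or Tnfr1-/- livers or Casp8-/- Mlkl-/- replicate 2 or 3, 10 without Casp8-/- Mlkl-/- replicate 1, 4 without Casp8-/- Tnfr1-/- replicate 1 and 2 when its replicate 2 or 3 was left out.

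**Figure D2:**
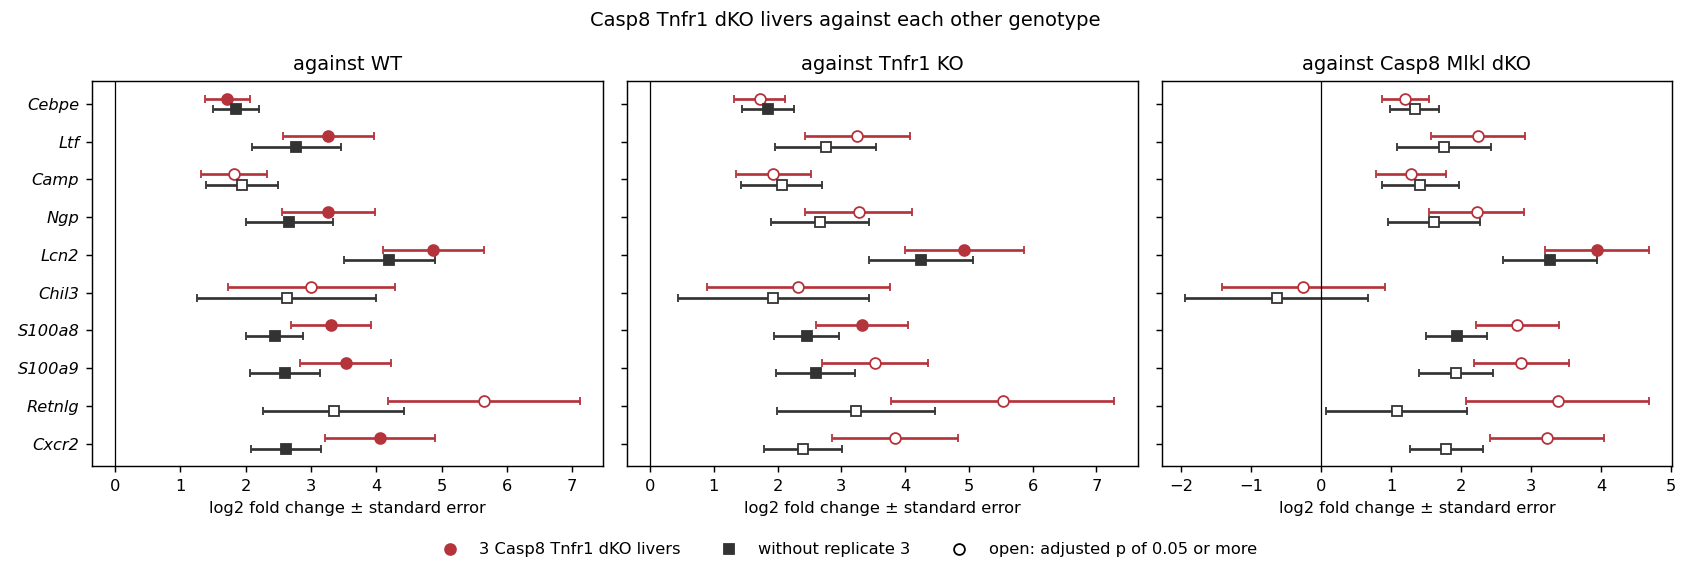
Log2 fold change and its standard error for each gene in Casp8-/- Tnfr1-/- livers against WT, Tnfr1-/- and Casp8-/- Mlkl-/- livers, from a fit of all 11 livers (circles) and from 1 that leaves replicate 3 out (squares); filled symbols mark an adjusted p under 0.05. Lcn2 is filled in all 3 panels, and Chil3 against Casp8-/- Mlkl-/- holds the only values below 0.

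Among the other 3 genotypes, none of the 10 genes was called in any comparison by edgeR, DESeq2 or limma-voom. edgeR called 0.00580% of all genes higher in Casp8-/- Mlkl-/- than in WT, 0% in Tnfr1-/- than in WT and 0.00580% in Casp8-/- Mlkl-/- than in Tnfr1-/-. At an unadjusted p under 0.05, 1 of the 10 genes passed in the first of these and 0 in the others. Tnfr1-/- livers lay near WT, with a median log2 fold change of -0.0034 over the 10 genes. Casp8-/- Mlkl-/- livers had a median of 0.88 against WT with all 10 fold changes positive, and without replicate 1 the median was -0.352 with 9 of 10 negative.

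Taking the 8 livers of the other genotypes as a group, all Casp8-/- Tnfr1-/- livers were higher for 7 of the 10 genes, where 7.43% of all genes tested showed such a gap upwards and 3.32% downwards. For these 7 genes the exact two-sided permutation test of 3 against 8 livers gave p = 0.006061, the smallest that the splits of 11 livers allow and not adjusted for the number of genes. Since these genes were named for their lack of overlap, this p adds little to the gap itself, and the 8 livers are not of 1 genotype. The exact permutation p was 0.01212 for Camp, 0.01818 for Retnlg and 0.07879 for Chil3. In all 10 genes the highest of the 8 livers was Casp8-/- Mlkl-/- replicate 1. Without it, a choice made after seeing the data, all 10 genes were free of overlap, where 13.4% of all genes tested had every Casp8-/- Tnfr1-/- liver above the other 7.

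Replicate 3 changed the sizes more than the calls against WT. Without it, the same 7 genes were called against WT, where 7.28% of all genes were called higher, and the median of the 10 log2 fold changes was 2.62. Against Tnfr1-/-, 4 genes were then called (Cebpe, Lcn2, S100a8 and S100a9) with 4.46% of all genes higher, and against Casp8-/- Mlkl-/- 2 genes (Lcn2 and S100a8) with 2.83%. Lcn2 had log2 fold changes of 4.20 ± 0.69 SE against WT (adjusted p = 0.00587), 4.25 ± 0.82 SE against Tnfr1-/- (adjusted p = 0.0188) and 3.27 ± 0.67 SE against Casp8-/- Mlkl-/- (adjusted p = 0.0351). With Casp8-/- Mlkl-/- replicate 1 left out as well, a choice made after seeing the data, all 10 genes were called in each comparison, where 17.8%, 13.9% and 12.0% of all genes were called higher, and the medians were 2.63, 2.54 and 2.97. Chil3 then had a positive log2 fold change of 3.001 against Casp8-/- Mlkl-/-.

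The Casp8-/- Tnfr1-/- livers also differed from each other. The fold of replicate 3 over the mean of replicates 1 and 2 was 0.750 for Camp, 0.751 for Cebpe, 1.93 for Chil3, 2.23 for Ltf, 2.56 for Ngp, 2.80 for Lcn2, 3.50 for S100a8, 3.74 for S100a9, 6.19 for Cxcr2 and 12.8 for Retnlg. Replicate 3 was the highest of all 11 livers for 7 of the 10 genes, where 32.3% of all genes tested were highest in this liver. Cxcr2 and Retnlg, genes of mature cells, were thus at the top of this order and Cebpe and Camp at its bottom. The order did not follow maturation throughout. Ltf and Ngp, of the specific granules like Camp, were higher in replicate 3, while Ly6g, an antigen of mature neutrophils outside the 10 genes, stood at 0.4995 times the mean of replicates 1 and 2. This is a description of 1 liver, which was also the 1 with muscle RNA and with Xist, and the part of either in these values was not tested.

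Primary granule genes went the other way in that liver. Mpo, which encodes myeloperoxidase, stood at 53.4 CPM in Casp8-/- Tnfr1-/- replicate 3, 672 and 819 CPM in replicates 1 and 2 and 336 to 599.7 CPM in the other 8 livers. Elane, Prtn3 and Ctsg, which encode serine proteases of the same granules, stood there at 14.4, 35.4 and 7.98 CPM, below all other livers. Of the 11 primary granule genes, 9 were below all other livers in replicate 3, at 0.0525 to 0.296 times the mean of replicates 1 and 2, and the other two were Serpinb1a, at 1.07 times, and Bpi, which had no counts in 10 livers. Of all genes tested, 38.8% were below all other livers in replicate 3. In replicates 1 and 2, 10 of the 11 primary granule genes were above all 8 livers of the other genotypes, as were 10.7% of all genes tested.

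**Figure D3:**
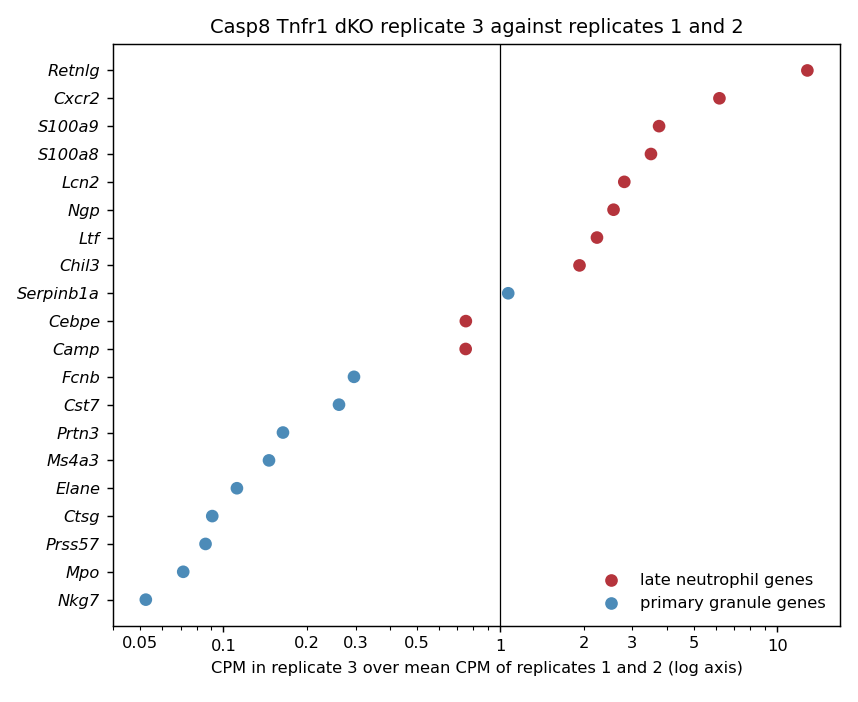
Fold of CPM in Casp8-/- Tnfr1-/- replicate 3 over the mean of replicates 1 and 2 (log axis) for the 10 late neutrophil genes and 10 primary granule genes (Bpi, without counts, is left out). Late genes run from 0.750 for Camp to 12.8 for Retnlg, and primary granule genes other than Serpinb1a lie at or below 0.296.

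With all 3 Casp8-/- Tnfr1-/- livers in the fit, 1 of the 10 genes tested from the primary granule list was called against each genotype. It was Serpinb1a, which encodes an inhibitor of neutrophil proteases rather than a granule protease (log2 fold change 2.12 ± 0.21 SE against WT, adjusted p = 0.000641). The median over the primary granule genes was 0.81 against WT, 0.90 against Tnfr1-/- and 0.62 against Casp8-/- Mlkl-/-. Without replicate 3, 9, 9 and 5 of the 10 were called higher, with medians of 1.28, 1.29 and 1.08, all smaller than those of the late genes in the same livers. Mpo then had a log2 fold change of 0.93 ± 0.21 SE against WT (adjusted p = 0.0248). The ratio of summed CPM of the 10 late genes to that of the 11 primary granule genes was 0.767 to 1.44 in 7 of the other 8 livers, 4.69 in Casp8-/- Mlkl-/- replicate 1, 4.27 and 4.08 in Casp8-/- Tnfr1-/- replicates 1 and 2 and 74.1 in replicate 3.

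**Figure D4:**
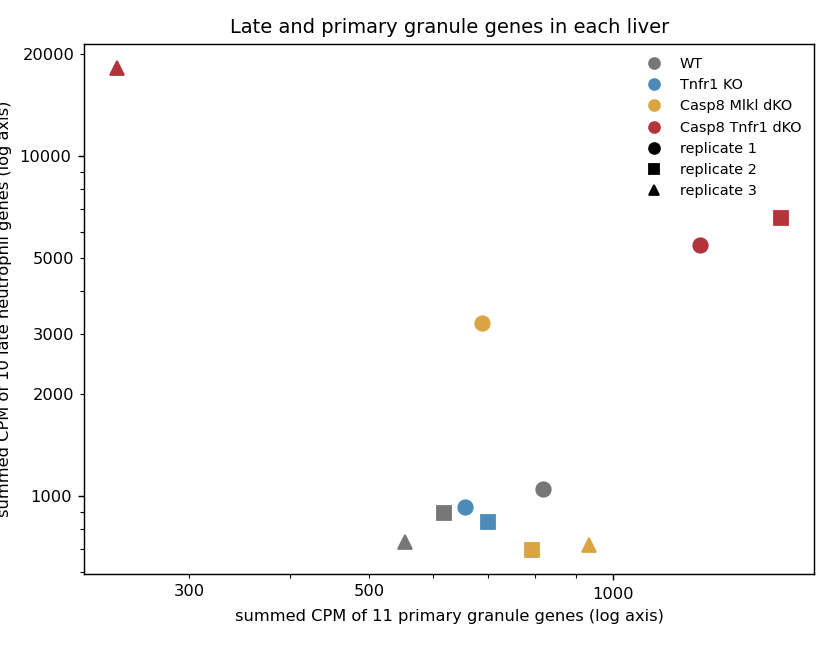
Summed CPM of the 10 late neutrophil genes against summed CPM of the 11 primary granule genes in each liver (log axes); colours give the genotype and shapes the replicate number. Casp8-/- Tnfr1-/- replicates 1 and 2 are high on both axes, replicate 3 is highest for late genes (18142 CPM) and lowest for primary granule genes (245 CPM), and Casp8-/- Mlkl-/- replicate 1 is raised on the late axis only.

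Casp8-/- Mlkl-/- replicate 1 was the other liver with a high late-to-primary ratio, a description with no test. Its 10 late genes summed to 3234.5 CPM, against 694.5 and 716 CPM in replicates 2 and 3, with folds over their mean from 2.25 for Cebpe to 18.3 for Retnlg and 35.1 for Chil3. Its primary granule genes summed to 689 CPM, below the 793 and 934 CPM of replicates 2 and 3 and within the WT range of 554 to 819 CPM. Markers of macrophages (1636 CPM summed over 11 genes, against 665 to 726 CPM) and hepatocytes were, in sum, also at their highest in this liver among Casp8-/- Mlkl-/- livers, whereas of the 6 monocyte markers Ccr2 and F13a1 were not, and their part in the late gene values was not tested.

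Other late neutrophil genes gave fold changes of similar size. Of 22 such genes, all tested, 19 were higher in Casp8-/- Tnfr1-/- livers than in WT, 5 than in Tnfr1-/- and 2 than in Casp8-/- Mlkl-/-, with median log2 fold changes of 3.33, 3.22 and 2.30. Without replicate 3, 16, 8 and 2 were called. The matrix metalloproteinase genes Mmp8 (4.94 ± 1.19 SE, adjusted p = 0.0413) and Mmp9 (4.04 ± 0.85 SE, adjusted p = 0.0235), Cd177, which encodes a surface protein of neutrophils (4.67 ± 0.86 SE, adjusted p = 0.0132), and Padi4, which encodes the enzyme that citrullinates histones in neutrophils (4.75 ± 0.98 SE, adjusted p = 0.0218), were among those higher than in WT. Without replicate 3, Mmp8 was not called against WT (adjusted p = 0.0583), while Mmp9, Cd177 and Padi4 still were. Casp8-/- Mlkl-/- replicate 1 held Mmp8 at 62.0 CPM, above Casp8-/- Tnfr1-/- replicate 1 at 58.0 CPM. It held Mmp9 at 63.6 CPM, above Casp8-/- Tnfr1-/- replicates 1 and 2 at 48.1 and 60.1 CPM. Ly6g, the antigen of mature mouse neutrophils, was low throughout, at most 4.30 CPM, and had an adjusted p of 0.207 against WT. It was also the exception among the 22 genes in Casp8-/- Tnfr1-/- replicate 3, where the other 21 had their highest value of all 11 livers and Ly6g stood at 1.54 CPM. Hp and Slpi were the other two genes not called against WT.

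Of 11 regulators of granulocytes, 10 were tested and 3 were higher than in WT, namely Spi1, which encodes PU.1 (1.52 ± 0.26 SE, adjusted p = 0.00888), Csf3r, the receptor for G-CSF (2.91 ± 0.62 SE, adjusted p = 0.0256), and Cebpd (2.52 ± 0.58 SE, adjusted p = 0.0346). Against Tnfr1-/-, Spi1 alone was called, and against Casp8-/- Mlkl-/- edgeR called 0 of the 10, where 6 were higher at an unadjusted p under 0.05, DESeq2 called 4 and limma-voom 0 (Spi1 had an adjusted p of 0.0879 in edgeR). DESeq2 called 4 against Tnfr1-/- as well, and without replicate 3 edgeR called 5 against WT, 4 against Tnfr1-/- and 1 against Casp8-/- Mlkl-/-. Gfi1, a repressor needed for early granulocyte precursors, stood at 12.8 and 18.1 CPM in Casp8-/- Tnfr1-/- replicates 1 and 2 and 1.77 CPM in replicate 3, below every other liver. Cebpb, linked to emergency granulopoiesis, stood at 9.09, 13.6 and 96.0 CPM in Casp8-/- Tnfr1-/- livers, against 3.77 to 8.55 CPM in the other 8. Csf3, which encodes G-CSF, was not tested, with at most 0.57 CPM in any liver.

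Among the ligands of CXCR2, Cxcl1 stood at 32 and 33.2 CPM in Casp8-/- Tnfr1-/- replicates 1 and 2, at 0.475 times their mean in replicate 3 and at 0.841 to 2.30 CPM in the other 8, and was higher in all 3 comparisons (3.97 ± 0.45 SE against WT, adjusted p = 0.0011). Cxcl2 stood at 2.35, 1.93 and 34.3 CPM in Casp8-/- Tnfr1-/- livers and at most 0.0811 CPM elsewhere. Cxcl1 was lowest and Cxcl2 highest in replicate 3, so the ligands did not share 1 order of livers. Ppbp, which platelets store, was not called in any comparison (log2 fold change -0.05 ± 0.40 SE against WT, adjusted p = 0.94).

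Markers of other cells gave the following counts in Casp8-/- Tnfr1-/- livers. Of 6 monocyte markers, 3 were higher than in WT (Ly6c2, F13a1 and Ms4a4c) and 0 were called by edgeR against Tnfr1-/- or Casp8-/- Mlkl-/- (3 at an unadjusted p under 0.05 in each; DESeq2 called 2 and 3, limma-voom 1 and 0). Without replicate 3, 4, 3 and 1 were called. Fn1, which is not special to monocytes and was not called, made up most of the summed level, 2183 to 3888 CPM in Casp8-/- Tnfr1-/-, 1246.5 to 1670.5 CPM in WT, 1865 to 1885 CPM in Tnfr1-/- and 1734 to 5322 CPM in Casp8-/- Mlkl-/-. Ccr2, the chemokine receptor of inflammatory monocytes, stood at 29.9 and 32.6 CPM in Casp8-/- Tnfr1-/- replicates 1 and 2 and at 3.42 CPM in replicate 3, below all other livers. Of 11 macrophage markers, none was higher (0 at an unadjusted p under 0.05, with DESeq2 and with limma-voom), and 2 were lower than in WT (Clec4f and Marco) and 3 than in Casp8-/- Mlkl-/- (Adgre1, Timd4 and Marco). Of all genes tested, 0.702% were called lower than in WT and 0.116% than in Casp8-/- Mlkl-/-. Without replicate 3, 0 macrophage markers were lower than in WT (adjusted p = 0.0537 for Clec4f and 0.0764 for Marco) and 3 than in Casp8-/- Mlkl-/-. In that fit 2.55% and 0.335% of all genes were called lower. Without both livers that stand apart, a choice made after seeing the data, 6 were lower in each of the 3 comparisons and 1, 1 and 0 higher. Of all genes, 13.5%, 9.30% and 6.10% were then called lower. Macrophage markers had summed levels of 264 to 473 CPM in Casp8-/- Tnfr1-/-, 507 to 649.75 CPM in WT, 587 to 621 CPM in Tnfr1-/- and 665 to 1636 CPM in Casp8-/- Mlkl-/-. Vsig4, which marks resident macrophages, was at 0 in Casp8-/- Tnfr1-/- replicates 1 and 3. It was also low in Casp8-/- Mlkl-/- replicates 2 and 3, at 0.029 and 0.15 CPM, but not in replicate 1, at 4.46 CPM. Clec4f stood at 5.47, 0.20 and 0.73 CPM in Casp8-/- Mlkl-/- livers, against 10.5 to 13.7 CPM in WT. None of the 7 eosinophil, basophil and mast cell markers, 6 hepatocyte markers, 6 erythroid markers and 8 muscle genes was called in any of the 3 comparisons. At an unadjusted p under 0.05, 0 of these eosinophil, basophil, mast cell and hepatocyte markers, at most 2 erythroid markers (lower) and all 8 muscle genes (higher) passed, and DESeq2 called 2 erythroid markers lower than in WT and 1 muscle gene in each comparison while limma-voom called none. Without both livers that stand apart, more were called in the 3 comparisons (WT, Tnfr1-/- and Casp8-/- Mlkl-/- in turn). Of the erythroid markers 6, 5 and 2 were then lower, and of the hepatocyte markers 3, 3 and 0. Of the muscle genes 1, 1 and 3 were higher, and of the eosinophil, basophil and mast cell markers 1, 0 and 0. In that fit 17.8%, 13.9% and 12.0% of all genes were called higher. Of 5 endothelial markers, Pecam1 was higher than in WT with all livers in the fit (adjusted p = 0.0449). What part monocytes or any other cells had in the late gene values was not tested.

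Per kilobase of the exon length that the authors deposited, S100a9 had the highest level of the 10 genes in WT livers, 549 CPM per kilobase (441.3 to 645 over 3 livers), followed by S100a8 at 358, Ngp at 139, Camp at 98.6, Lcn2 at 69.1 and Ltf at 39.5. Cebpe (4.36), Retnlg (3.82), Chil3 (1.27) and Cxcr2 (1.17) formed a low group. Ranges over WT livers overlapped between Camp and Lcn2, Cebpe and Retnlg, and Chil3 and Cxcr2, but Camp was above Lcn2 and Cebpe above Retnlg in each of the 3 WT livers, and Chil3 was above Cxcr2 in 2 of them. In Casp8-/- Tnfr1-/- livers Lcn2 moved up, to 2028 CPM per kilobase, after S100a9 (6337) and S100a8 (3554), and before Ngp (1336), Ltf (380), Camp (348), Retnlg (192), Cxcr2 (19.5), Cebpe (14.3) and Chil3 (10.2). The ranges of neighbours in that order overlapped, except between Ngp and Ltf. Within single livers the order of S100a9, S100a8, Lcn2, Ngp and Ltf held in all 3, as did Retnlg above Cxcr2, while each of the other pairs of neighbours was in reverse order in at least 1 liver.

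The 5 genes outside all lists whose log2 CPM most resembled the mean of the 10 genes were Chil1, 6430548M08Rik, Asprv1, Itgb2l and Gm5483, by the lower of Pearson's r over 11 livers and over the 10 without Casp8-/- Tnfr1-/- replicate 3. The lower r ran from 0.991 for Gm5483 to 0.996 for Chil1, as a description with no test, and all these points share the same 11 libraries. Chil1, a chitinase-like gene on chromosome 1, stood at 4.82 to 7.91 CPM in 7 of the other livers, 33.3 CPM in Casp8-/- Mlkl-/- replicate 1 and 41.7, 50.9 and 196 CPM in Casp8-/- Tnfr1-/-. Itgb2l, which encodes an integrin beta chain, stood at 5.84 to 10.1 CPM in those 7 livers, 33.5 CPM in Casp8-/- Mlkl-/- replicate 1 and 41.6, 52.1 and 108 CPM in Casp8-/- Tnfr1-/-. Among the 10 genes themselves, r with their common mean was highest for Ngp and Ltf (0.998 each over 11 livers) and lowest for Chil3 (0.868).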

How the data were processed

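RNA-seq of 11 whole E15.5 livers was analysed. The authors aligned single-end 50-base reads to GRCm38 (mm10) with GSNAP 2013-11-10 and deposited, per liver, raw counts of uniquely mapped reads per Ensembl gene, with a gene width in bases and RPKM. The RPKM values that the authors deposited were used only to compare read totals: counts made up 76.5 to 83.4% of the totals behind them. The labels name a TruSeq RNA v2 kit and a HiSeq4000, the study's methods a stranded TruSeq kit and a NovaSeq sequencer; the counting tool, annotation release and use of strand are not given in the sources used here. Names and positions came from GENCODE M21.

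Counts of all 4 genotypes were fitted together in edgeR 4.0.16 (R 4.3.3) by the quasi-likelihood test (glmQLFit, glmQLFTest), after filterByExpr (minimum count 10) and TMM scaling, with genotype as the only factor. P values were adjusted by Benjamini-Hochberg across 17243 genes, with a threshold of 0.05. The prior degrees of freedom were 2.922 and the common biological coefficient of variation 33.31%. Errors are standard errors (SE). For log2 CPM the prior count was 2. For a single gene, 3 livers were set against 8 by exact two-sided permutation over all splits, since 3 against 3 cannot go below p = 0.1. Limits on counts (a floor of 3) cover counting error only, as reads lack molecular identifiers. No library pair agreed within sampling noise (chi-square at least 6.471 per degree of freedom). The method was tested on simulated data. Alternatives used DESeq2 1.42.0, limma-voom (limma 3.58.1) with and without quality weights, no filter, other scalings, a replicate block and each liver left out.

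The genes, the gene lists (late, primary granule, regulator, ligand and cell type markers) and the rule for naming genes were chosen with earlier results of these data known. The text names the 10 genes, genes of these lists, and the 5 genes outside them most like their mean. Shared reads were measured as 50-base stretches found in other GENCODE M21 genes, and no exon of another gene overlaps the 10 genes. Promoters came from RefSeq (GRCm38.p6).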

Additional observations from a re-analysis of the deposited data

How the results depend on the processing

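Against WT, 7 of the 10 genes were called in Casp8-/- Tnfr1-/- livers, and with single livers left out the count ranged from 0 to 10, being 1, 1 and 0 without WT replicate 1, 2 or 3. Against Tnfr1-/- (2 called) it was 1 with DESeq2 size factors, 8 with DESeq2's Wald test, 4 with limma-voom, 10 with quality weights, 7 with no filter on low counts, 0 with only both genotypes in the fit, 0 to 8 with single livers left out (8 without Casp8-/- Mlkl-/- replicate 1) and 10 without both livers that stand apart, a choice made after seeing the data. Against Casp8-/- Mlkl-/- (1 called) it was 2 with hemoglobin genes out of library sizes, 7 with DESeq2's Wald test, 3 with limma-voom, 10 with quality weights, 4 with no filter, 0 with only both genotypes, 0 to 10 with single livers left out (10 without Casp8-/- Mlkl-/- replicate 1) and 10 without both livers. Quality weights were 0.0383 for Casp8-/- Tnfr1-/- replicate 3 and 0.114 for Casp8-/- Mlkl-/- replicate 1, against 1.15 to 2.64 elsewhere. DESeq2's Wald test called 10.5%, 6.55% and 4.64% of all genes higher in the 3 comparisons, limma-voom 4.07%, 2.13% and 1.68%, and quality weights 2934, 2511 and 1894 of 17243 genes. With only both genotypes in the fit, 0.316% of all genes were called higher against Tnfr1-/- and 0.0612% against Casp8-/- Mlkl-/-. No share is given here beside the counts with other scalings, with no filter or with single livers left out. The fold changes of Cebpe, Ltf, Camp, Ngp, Lcn2, S100a8, S100a9, Retnlg and Cxcr2 stayed positive in all 3 comparisons of Casp8-/- Tnfr1-/- livers under every alternative run. Chil3 changed sign: its log2 fold change against Casp8-/- Mlkl-/- was 1.64 with limma-voom, 2.78 with quality weights, 1.18 with the replicate block, -0.79 to 3.37 with single livers left out and 3.001 without both livers, and that of Casp8-/- Mlkl-/- against WT (3.26) was -0.11 with quality weights, -0.36 to 3.80 with single livers left out and -0.36 without both livers. The cause was not tested. With 1 Tnfr1-/- liver left out, the lone remaining liver was assumed to vary like the other groups. Other scalings moved the median of all genes by at most 0.0148 (log2).

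With the replicate number as a block, 5 genes were called against WT, 0 against Tnfr1-/- and 0 against Casp8-/- Mlkl-/-, where 3.09%, 1.06% and 0.754% of all genes were called higher. The numbers are not shown to pair the livers: the labels say nothing of it, and 5 of 15 same-numbered pairs had deviations that correlated over 0.1 (r from -0.297 to 0.275).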
